A study of Homo sapiens with 18 samples.

Results

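The 9 genes ESRP1, ESRP2, RAB25, AP1M2, PRSS8, ST14, SPINT1, SPINT2 and EPCAM were followed through the MCF10 model of breast cancer progression, as 9 of 35933 genes with values in the deposited table. They were taken by symbol and name a pair of epithelial splicing factors, a pair of trafficking factors, the surface proteases prostasin and matriptase with their inhibitors, and the adhesion protein EpCAM. They were brought together after their falls in MCF10AT1 were known, so every difference that involves an MCF10AT1 group is given here as a description of the values, with no test for these genes. The tests between MCF10CA1h and MCF10A controls, and of the difference of their knockdown effects, came from fits that also held MCF10AT1 libraries. Those libraries entered the estimate of spread and the filter on mean level. RNA sequencing covered 18 libraries in 6 groups, with 3 libraries (a, b and c) of the negative CRISPR control and 3 of the METTL3 CRISPR knockdown in each of 3 lines. MCF10A cells are breast epithelial cells that became immortal spontaneously and form no tumours. MCF10AT1 carries an introduced mutated HRas in that background, and the tumorigenic MCF10CA1h line came out of MCF10AT1 through repeated xenografts in mice. All lines were kept in DMEM/F12 with horse serum, insulin, hydrocortisone, cholera toxin and epidermal growth factor. Control cells received a construct with a control guide RNA and knockdown cells one that targets METTL3, the main writer of N6-methyladenosine on mRNA. Both were then grown from single sorted cells. The 3 libraries of a group came from 1 such line, so p-values measure only the spread between libraries of that line, and the difference between a knockdown and its control cannot be told apart from a difference between clones.

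ESRP1 and ESRP2 bind RNA and set the epithelial pattern of alternative exons in genes such as FGFR2, CD44 and CTNND1. RAB25 is an epithelial member of the RAB11 family of GTPases that returns cargo from recycling endosomes to the surface, and AP1M2 encodes the epithelial medium subunit of the AP-1 clathrin adaptor, which sorts proteins to the basolateral membrane. PRSS8 encodes prostasin, a serine protease held in the membrane by a lipid anchor, and ST14 encodes matriptase, which spans the membrane. SPINT1 and SPINT2 encode the Kunitz inhibitors HAI-1 and HAI-2 that restrain both proteases. EPCAM is an adhesion glycoprotein of epithelial cells that associates with claudins and protects them from degradation, and matriptase can cleave it. All are widely used as markers of epithelial cells, and loss of this gene programme is part of the epithelial to mesenchymal transition (EMT).

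In the annotation of GENCODE 44 (hg38, the build named by the authors) all 9 are protein-coding genes, and the positions of 8 are given here. ESRP2 lies at chr16:68229033-68238102 and PRSS8 at chr16:31131433-31135727, both on the minus strand. RAB25 lies at chr1:156061160-156070504 on the plus strand, AP1M2 at chr19:10572671-10587315 on the minus strand and SPINT2 on the same chromosome at chr19:38244035-38292615 on the plus strand. ST14 lies at chr11:130159782-130210362, SPINT1 at chr15:40844018-40858207 and EPCAM at chr2:47345158-47387601, all on the plus strand. The pairs that share a chromosome are not neighbours.

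Promoter sequences from RefSeq (GRCh38.p14) were matched by symbol for RAB25, AP1M2 and SPINT1, and not for ESRP1, ESRP2, PRSS8, ST14, SPINT2 and EPCAM. The 3 that matched are shown. In the MCF10AT1 libraries labelled knockdown RAB25 and AP1M2 were near 0 and SPINT1 had 32.8% of its control mean. The windows hold the 250 bases before the RefSeq start, less the last 3 bases for AP1M2 and the last 30 for SPINT1, which GENCODE places inside the gene. They run 5′ to 3′ on the strand of the gene, from chr1:156060910-156061159 (plus) for RAB25, chr19:10587316-10587562 (minus) for AP1M2 and chr15:40843798-40844017 (plus) for SPINT1. Capitals mark CACCTG, or CAGGTG when the match is on the other strand, the E-box core bound by the EMT repressors ZEB1 and ZEB2 and by other factors.
RAB25: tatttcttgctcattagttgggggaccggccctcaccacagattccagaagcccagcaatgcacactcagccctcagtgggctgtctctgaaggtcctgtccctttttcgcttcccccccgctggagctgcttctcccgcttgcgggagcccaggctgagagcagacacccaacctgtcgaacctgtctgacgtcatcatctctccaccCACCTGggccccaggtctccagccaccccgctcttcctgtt
AP1M2: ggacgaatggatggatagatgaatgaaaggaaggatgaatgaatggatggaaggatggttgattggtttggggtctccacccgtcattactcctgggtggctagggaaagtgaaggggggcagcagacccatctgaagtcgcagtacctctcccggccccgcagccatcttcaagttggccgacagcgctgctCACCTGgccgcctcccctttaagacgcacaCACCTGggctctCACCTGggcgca
SPINT1: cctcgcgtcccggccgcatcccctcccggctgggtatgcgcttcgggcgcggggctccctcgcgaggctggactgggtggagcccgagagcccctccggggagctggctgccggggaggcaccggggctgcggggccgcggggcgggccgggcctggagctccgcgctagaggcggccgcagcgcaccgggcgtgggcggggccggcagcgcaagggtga
The RAB25 window held CACCTG once, 41 bases before the RefSeq start, and the AP1M2 window held it 3 times, 57, 27 and 15 bases before. The SPINT1 window shown held none, and a window before another RefSeq start of SPINT1 held 1 on the opposite strand. Over all 35116 RefSeq windows of 250 bases, 17.49% held this motif on either strand. AACNGGTT, a core recognised by grainyhead-like factors such as GRHL2, was in 1.487% of all windows and in 0 of the 4 windows of these genes, and CCCGCC, the core of a GC box, was in 42.52% of all windows and in both SPINT1 windows but not in those of RAB25 and AP1M2. Over the full 250 bases, those not printed included, the SPINT1 window had 35 CpG dinucleotides and 80.4% G and C, against 8 and 60.4% for RAB25 and 10 and 58% for AP1M2, with a median of 11 CpG over all windows. A match of letters is a description of the sequence, and binding was not measured.

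Normalized counts, the unit of the deposited table, summed to between 21347352 and 31681834 per library. METTL3 itself was checked first. In MCF10A it had 752, 686 and 459 normalized counts in control libraries a, b and c and 939, 981 and 509.8 in the libraries labelled knockdown, a difference of 0.33 on the log2 scale (adjusted p = 0.618). In MCF10AT1 the values were 968, 1016 and 805 against 816, 752 and 902 (log2 difference -0.17, adjusted p = 0.707), and in MCF10CA1h 1022, 1102 and 1280.4 against 825, 745 and 843 (log2 difference -0.49, adjusted p = 0.0234). Its RNA was therefore lower in the labelled knockdown of MCF10CA1h alone by this test, and RNA level does not report on the protein of a gene edited in an exon. By Western blot the study reported less METTL3 protein in every line, substantially so in MCF10AT1 and only moderately in MCF10CA1h. It also reported lower METTL3 mRNA by RT-PCR. N6-methyladenosine fell significantly in MCF10AT1 and MCF10CA1h and not significantly in MCF10A. Because the RNA values here do not show the knockdown in every line, the groups are called the libraries labelled knockdown. Library c of the MCF10AT1 control stood apart. Over 15897 genes its log2 values correlated with those of MCF10A knockdown library b at Pearson's r of 0.9411, higher than with either library of its own group (0.8738 and 0.9315), and the MCF10AT1 differences of the 9 genes and list counts are given with and without it.

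Breast epithelial markers were present in all groups. Over 15 of them (keratins, E-cadherin, P-cadherin, desmosomal proteins, laminin LAMB3 and SFN) the summed normalized counts were between 543679 and 703892 in MCF10A libraries of both kinds, between 519741 and 567760 in MCF10CA1h controls, between 772557 and 867227 in the MCF10CA1h libraries labelled knockdown, between 237489 and 425008 in MCF10AT1 controls and between 75025 and 147932 in the MCF10AT1 libraries labelled knockdown. Over 18 fibroblast and mesenchymal markers the sum went the other way, from 5852 to 6519 in the MCF10AT1 controls and from 134182 to 227969 in the libraries labelled knockdown. In MCF10A it lay between 8116 and 18593, and in MCF10CA1h it went from between 31957 and 37239 in controls to between 45932 and 57075. In MCF10AT1 10 of 15 epithelial markers tested were lower and 0 higher, and 8 of 13 mesenchymal ones higher and 0 lower (9 and 8 calls without control c). In MCF10CA1h 7 of 14 epithelial markers were higher and 0 lower, and 4 of 15 mesenchymal ones higher and 1 lower, with 3 and 1 calls in a joint fit of all 18 libraries. Of 7 endothelial and 7 leukocyte markers in the table, CDH5 and PTPRC, CD3E and LYZ were listed at 0 in all 3 MCF10AT1 libraries labelled knockdown. The leukocyte list was drawn up with HBB and NCAM1 as well, which are not specific to leukocytes, so its sum does not measure leukocytes alone. From MCF10AT1 controls to the libraries labelled knockdown the summed endothelial markers went from between 507 and 1031 to between 1209.9 and 1257 normalized counts. The sum of the leukocyte list went from between 785 and 1552 to between 2017 and 3038. In the other 2 lines these sums were between 193 and 649.6 and between 311 and 2150.3. The share of these markers in the results for the 9 genes was not tested, and fewer cells of a type and less RNA per cell cannot be told apart in bulk samples.

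**Figure D1:**
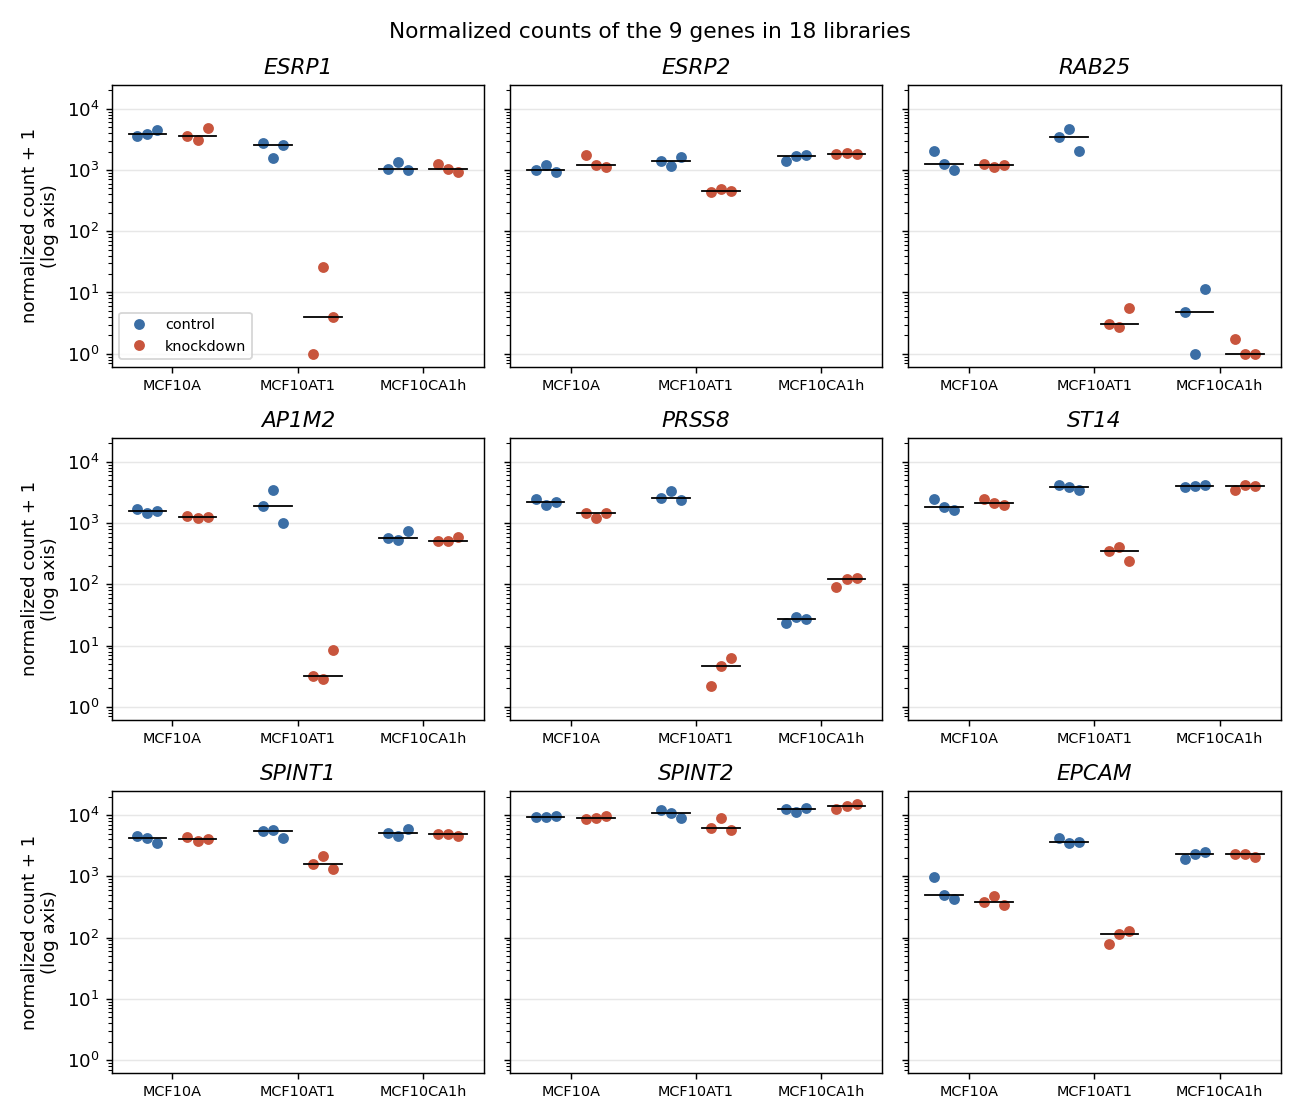
Each panel plots 1 of the 9 genes as the normalized count plus 1 on a log axis, for control (blue) and labelled knockdown (red) libraries of the 3 lines, with libraries a, b and c from left to right and a bar at the median. RAB25, AP1M2, PRSS8 and ESRP1 sit between 0 and 25.4 normalized counts in the MCF10AT1 libraries labelled knockdown, and RAB25 and PRSS8 are also low throughout MCF10CA1h.

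The splicing factors came first. ESRP1 had 3615, 3848 and 4454 normalized counts in MCF10A controls a, b and c, 2716, 1584 and 2606 in MCF10AT1 controls and 1026, 1327 and 1009 in MCF10CA1h controls. In the libraries labelled knockdown it had 3531, 3034 and 4772 in MCF10A, 0, 25.4 and 2.98 in MCF10AT1 and 1249, 1048 and 929.9 in MCF10CA1h. The groups overlapped in MCF10A and in MCF10CA1h, and in MCF10AT1 all 3 libraries labelled knockdown lay below all controls, at a mean of 0.411% of the control mean. Library b held most of what was left, and without it the log2 difference in MCF10AT1 went from -8.89 to -10.13. Without control c it was -8.78. In MCF10A the log2 difference was -0.09 ± 0.19 (SE, n = 3 per group, adjusted p = 0.851, limma) and in MCF10CA1h -0.06 ± 0.15 (adjusted p = 0.834), with a 95% interval from -0.38 to 0.27.

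ESRP2, the paralog of ESRP1, behaved differently in size. It had 1004, 1193 and 925 normalized counts in MCF10A controls, 1389.7, 1164 and 1652 in MCF10AT1 controls and 1427, 1709 and 1782 in MCF10CA1h controls. The libraries labelled knockdown had 1727, 1207 and 1119 in MCF10A, 443, 493 and 459 in MCF10AT1 and 1805, 1901 and 1814 in MCF10CA1h. In MCF10AT1 the groups were apart, and ESRP2 was at 33.2% of its control mean where ESRP1 was at 0.411%. Its log2 difference there was -1.58, or -1.45 without control c. In MCF10CA1h each library labelled knockdown lay above each control, but the log2 difference of 0.17 ± 0.11 (SE, n = 3 per group) did not pass the test (adjusted p = 0.333). In MCF10A it was 0.36 ± 0.20 (adjusted p = 0.402). ESRP2 overlaps NFATC3 on the opposite strand and a long noncoding RNA (ENSG00000262160, mean of 622 normalized counts) on its own strand, so some of its reads may be shared with the latter.

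Of the trafficking genes, RAB25 had the largest range. It had 2054, 1274 and 1010.0 normalized counts in MCF10A controls, 3449.6, 4741 and 2037 in MCF10AT1 controls, and 3.85, 0 and 10.2 in MCF10CA1h controls. With the METTL3 guide it had 1247, 1102 and 1215 in MCF10A, 2.02, 1.76 and 4.5 in MCF10AT1 and 0.77, 0 and 0 in MCF10CA1h. RAB25 was therefore high in MCF10A with or without the METTL3 guide, high in MCF10AT1 controls only, and near 0 in every MCF10CA1h library. In MCF10AT1 the mean of the labelled knockdown was 0.081% of that of the controls (log2 difference -9.81, or -10.14 without control c). In MCF10A the log2 difference was -0.22 ± 0.25 (SE, n = 3 per group, adjusted p = 0.698), and in MCF10CA1h the gene was under the minimum mean of 10 and was not tested.

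AP1M2 had 1713, 1444 and 1600.2 normalized counts in MCF10A controls, 1909.8, 3542 and 999 in MCF10AT1 controls and 571, 527 and 749 in MCF10CA1h controls. The libraries labelled knockdown had 1296, 1218 and 1272 in MCF10A, 2.19, 1.9 and 7.61 in MCF10AT1 and 513, 508 and 592 in MCF10CA1h. The MCF10AT1 controls spread more than for any other group of this gene, and control c was the lowest of the 3, yet all 3 lay far above the labelled knockdown, whose mean was 0.181% of theirs (log2 difference -8.78, or -9.24 without control c). In MCF10A all 3 libraries labelled knockdown lay below all controls, with a log2 difference of -0.33 ± 0.14 (SE, n = 3 per group) that did not pass the test after adjustment (adjusted p = 0.262). In MCF10CA1h the log2 difference was -0.18 ± 0.15 (adjusted p = 0.480). The processed pseudogene AP1M2P1 stayed between 0 and 2.82 normalized counts, so little of the signal was assigned to it.

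The protease PRSS8 was the only 1 of the 9 genes whose level passed the test between labelled knockdown and control in a line other than MCF10AT1. It had 2445, 1987 and 2183 normalized counts in MCF10A controls, 2579, 3345 and 2413 in MCF10AT1 controls and 22.8, 28.7 and 26.5 in MCF10CA1h controls. The libraries labelled knockdown had 1464, 1209 and 1490.0 in MCF10A, 1.22, 3.66 and 5.22 in MCF10AT1 and 90.8, 121 and 124 in MCF10CA1h. The groups did not overlap in any line, and the order was opposite in MCF10CA1h, where the labelled knockdown was the higher group.

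In MCF10CA1h PRSS8 rose 4.31-fold, from a mean of 26.0 to 112 normalized counts (log2 difference 2.06 ± 0.26, SE, n = 3 per group, adjusted p = 0.000812). The higher level was still far below that of either MCF10A group. The summed epithelial and mesenchymal markers were both higher in the same 3 libraries, as given above, and their part in this difference was not tested. In MCF10A it was at 62.9% of the control mean, a log2 difference of -0.67 ± 0.16 with an adjusted p of 0.0668. With the replicate letter as a block the adjusted p was 0.0247, and without control a it was 0.0495, so this call depended on the fit. The difference between the 2 knockdown effects was itself tested. It was 2.73 ± 0.42 on the log2 scale (adjusted p = 0.00108), and PRSS8 was the only 1 of the 9 genes to pass that test. In MCF10AT1 the labelled knockdown had 0.121% of the control mean (log2 difference -9.42, or -9.52 without control c).

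ST14, the transmembrane partner of prostasin, had 2514, 1831 and 1633 normalized counts in MCF10A controls, 4166, 3852 and 3519 in MCF10AT1 controls and 3875, 4050.4 and 4245 in MCF10CA1h controls. In the libraries labelled knockdown it had 2444, 2126 and 1975 in MCF10A, 356, 411 and 236 in MCF10AT1 and 3493, 4132 and 4045 in MCF10CA1h. Only in MCF10AT1 were the groups apart, and there 8.70% of the control mean was left (log2 difference -3.55, or -3.62 without control c). The log2 differences in MCF10A (0.15 ± 0.19, SE, n = 3 per group, adjusted p = 0.734) and MCF10CA1h (-0.06 ± 0.10, adjusted p = 0.715) did not pass the test.

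SPINT1 had 4486, 4256 and 3476 normalized counts in MCF10A controls, 5507, 5649 and 4268 in MCF10AT1 controls and 5051, 4530.1 and 5937 in MCF10CA1h controls. The labelled knockdown groups had 4313, 3814 and 4069.9 in MCF10A, 1568, 2176 and 1309 in MCF10AT1 and 4959, 4853 and 4601 in MCF10CA1h. The MCF10AT1 groups were apart, with 32.8% of the control mean left. SPINT2, the other Kunitz inhibitor, had 9428, 9282 and 9816 normalized counts in MCF10A controls, 12027, 10869 and 9085 in MCF10AT1 controls and 12394, 11199.7 and 13201 in MCF10CA1h controls. The labelled knockdown groups had 8781, 8941 and 9605 in MCF10A, 6120.4, 9056 and 5737 in MCF10AT1 and 12458, 13884 and 15128 in MCF10CA1h. In MCF10AT1 the SPINT2 groups nearly met, since knockdown library b with 9056 lay just under control c with 9085, and 65.4% of the control mean was left. Without control c the log2 difference in MCF10AT1 was -1.76 for SPINT1 and -0.74 for SPINT2.

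Neither inhibitor passed the test in the other lines. For SPINT1 the log2 difference was 0.0042 ± 0.15 in MCF10A (SE, n = 3 per group, adjusted p = 0.993) and -0.10 ± 0.11 in MCF10CA1h (adjusted p = 0.604). For SPINT2 it was -0.06 ± 0.13 in MCF10A (adjusted p = 0.850) and 0.17 ± 0.10 in MCF10CA1h (adjusted p = 0.307). The antisense transcript SPINT1-AS1 had a mean of 151 normalized counts, small beside SPINT1.

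EPCAM had 965, 502 and 418 normalized counts in MCF10A controls, 4291, 3494 and 3572 in MCF10AT1 controls and 1924, 2286 and 2506 in MCF10CA1h controls. The libraries labelled knockdown had 376, 479 and 333 in MCF10A, 78.8, 115 and 126 in MCF10AT1 and 2315, 2322 and 2049 in MCF10CA1h. In MCF10AT1 2.81% of the control mean was left (log2 difference -5.16, or -5.20 without control c), and the labelled knockdown of MCF10AT1 was lower than every MCF10A library as well. In MCF10A the groups overlapped and the log2 difference was -0.58 ± 0.32 (SE, n = 3 per group, adjusted p = 0.379). It was -0.23 without control a, the highest of the 3 controls. In MCF10CA1h the difference was -1.2e-05 ± 0.12, with a 95% interval from -0.26 to 0.26 (adjusted p = 1.00).

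Across the 9 genes, 0 passed the test in MCF10A, where 1.16% of the 15416 genes tested were called higher in the labelled knockdown and 1.49% lower. At an unadjusted p under 0.05 there were 2 of 9 (AP1M2 and PRSS8), and the median log2 difference was -0.09, against -0.0035 over all genes tested. In MCF10CA1h 1 of the 8 tested was higher and 0 lower, where 7.91% of the 15127 genes tested were higher and 4.85% lower, and the median was -0.03 against -0.02 over all genes. In MCF10AT1 all 9 were lower in each labelled knockdown library than in each control, with a median log2 difference of -5.16 against 0.02 over all genes. The share of all genes apart in this way in MCF10AT1 was not counted. In that line 7.07% of the 16050 genes tested were called higher and 5.96% lower, and nothing is read from this beside genes that were chosen for their falls there. For the difference of the effects between MCF10CA1h and MCF10A 1 of 9 was called, where 3.65% of the 15897 genes tested were higher and 1.69% lower. RAB25 met the filter on mean level there only through other lines, with 0 to 10.2 normalized counts in MCF10CA1h. Its lack of a call therefore says nothing about an effect in MCF10CA1h.

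The depth of the fall in MCF10AT1 put the 9 genes in 3 ranges. RAB25, PRSS8, AP1M2 and ESRP1 were left with between 0.081% and 0.411% of the control mean, EPCAM and ST14 with 2.81% and 8.70%, and SPINT1, ESRP2 and SPINT2 with 32.8%, 33.2% and 65.4%. Values of a few normalized counts lie close to the pseudocount of 1, so the log2 sizes for the first 4 follow it. With a pseudocount of 5 in place of 1, RAB25 had a log2 difference of -8.72, PRSS8 of -8.39, AP1M2 of -7.79 and ESRP1 of -7.72. All 4 stayed below the other 5 genes.

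**Figure D2:**
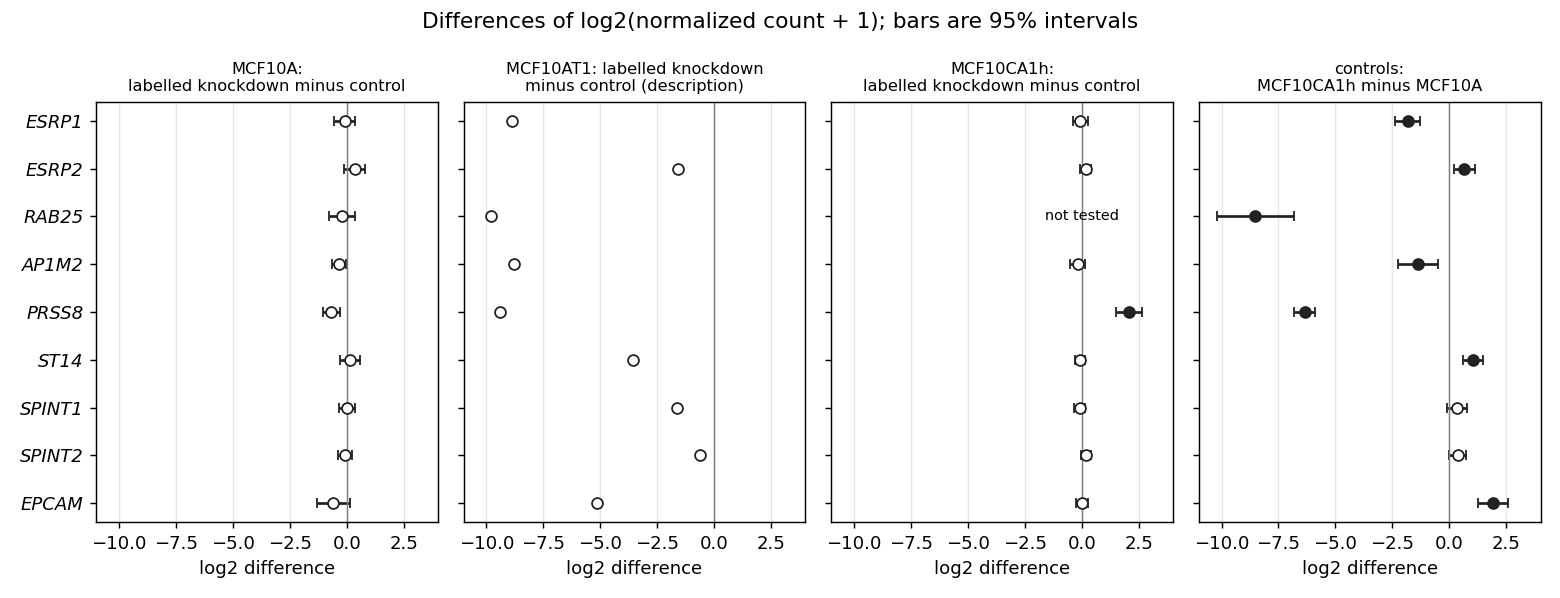
Each panel plots the difference of log2(normalized count + 1) for the 9 genes in 1 comparison, with 95% intervals from limma and filled circles for adjusted p under 0.05. MCF10AT1 is drawn without intervals or calls since the genes were chosen from it. PRSS8 is the only filled circle between labelled knockdown and control, at 2.06 in MCF10CA1h, and 7 of 9 genes are filled between the MCF10CA1h and MCF10A controls.

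The control libraries alone were then compared between stages of the model. Against MCF10A, the MCF10CA1h controls were lower in RAB25, PRSS8, ESRP1 and AP1M2 and higher in EPCAM, ST14 and ESRP2, so that 7 of 9 genes passed the test, where 19.0% of the 15652 genes tested were called higher and 18.8% lower. RAB25 was at 0.324% of the MCF10A mean (log2 difference -8.51 ± 0.75, SE, n = 3 per group, adjusted p = 0.000113) and PRSS8 at 1.18% (-6.35 ± 0.21, adjusted p = 8.73e-07). The next 2 fell less. ESRP1 was at 28.2% (-1.83 ± 0.24, adjusted p = 0.000672) and AP1M2 at 38.8% (-1.38 ± 0.39, adjusted p = 0.0203). The AP1M2 call was lost when MCF10A control a, b or c or MCF10CA1h control a or b was left out, at adjusted p between 0.0504 and 0.0680.

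EPCAM was 3.56-fold higher in MCF10CA1h than in MCF10A controls (log2 difference 1.92 ± 0.29, SE, n = 3 per group, adjusted p = 0.00135) and ST14 was 2.04-fold higher (1.05 ± 0.19, adjusted p = 0.00325). Prostasin and matriptase RNA thus moved apart, with PRSS8 84.9-fold lower and ST14 higher. ESRP2 was 1.58-fold higher (0.66 ± 0.20, adjusted p = 0.0282), but its adjusted p was 0.101 with libraries scaled to equal sums, 0.0573 with no filter and between 0.0507 and 0.110 without MCF10A control a or c or any 1 MCF10CA1h control. ESRP1 fell where its paralog was higher. SPINT1 (log2 difference 0.34 ± 0.19, adjusted p = 0.184) and SPINT2 (0.36 ± 0.17, adjusted p = 0.114) did not pass, though all MCF10CA1h controls lay above all MCF10A controls for both, and SPINT2 passed without MCF10AT1 control c, which shares the fit (adjusted p = 0.0399).

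The MCF10AT1 controls lay between or above the other lines. Against MCF10A they had 6.03-fold the EPCAM mean (log2 difference 2.68), 1.93-fold the ST14 mean and 2.36-fold the RAB25 mean, while ESRP1 was at 58.0%. For RAB25 the groups overlapped, because control c of MCF10AT1 was below control a of MCF10A, and without control c the log2 difference was 1.55 in place of 1.22. AP1M2 overlapped as well, with a log2 difference of 0.26 that became 0.72 without control c and -0.20 without control b. Against MCF10AT1, the MCF10CA1h controls had 0.138% of the RAB25 mean, 0.935% of the PRSS8 mean, 28.6% of that of AP1M2, 48.7% of that of ESRP1 and 59.1% of that of EPCAM. The log2 differences of the remaining 4 were between 0.01 for SPINT1 and 0.23 for ESRP2. Without control c of MCF10AT1 these 4 lay between -0.12 for SPINT1 and 0.36 for ESRP2, and the log2 differences of the first 5 were -10.06, -6.77, -2.09, -0.90 and -0.80 in the order given. The 2 sets of values share the MCF10AT1 controls, so they are given side by side only.

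Low RAB25 and PRSS8 thus occurred in 2 settings that differ in the other genes. The MCF10AT1 libraries labelled knockdown were below their controls in all 9, with ESRP1 at 0 to 25.4 and EPCAM at 78.8 to 126 normalized counts. The MCF10CA1h libraries were as low in RAB25, from 0 to 10.2, but had ESRP1 between 929.9 and 1327, AP1M2 between 508 and 749, ST14 between 3493 and 4245 and EPCAM between 1924 and 2506. PRSS8 in MCF10CA1h lay above its MCF10AT1 labelled knockdown values in all 6 libraries.

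Levels were compared between genes only per length, as normalized counts per kilobase of the canonical transcript. SPINT2 was the highest of the 9 in the controls of all 3 lines, at 5633 ± 163 per kilobase in MCF10A, 6315 ± 878 in MCF10AT1 and 7266 ± 596 in MCF10CA1h (SD, n = 3). In MCF10A controls SPINT1 (1368), RAB25 (1314), PRSS8 (1200), ESRP1 (1054) and AP1M2 (907) followed, each overlapping its neighbours in this order, then ST14 (603), EPCAM (406) and ESRP2 (303), which overlapped in turn. In MCF10AT1 controls RAB25 (3099) and EPCAM (2447) came next after SPINT2, overlapping each other, and ESRP1 (611) and ESRP2 (409) came last, overlapping as well. In MCF10CA1h controls the order after SPINT2 was SPINT1 (1737), EPCAM (1447), ST14 (1227), ESRP2 (478), AP1M2 (352), ESRP1 (297), PRSS8 (14.1) and RAB25 (4.26). EPCAM overlapped both SPINT1 and ST14 there, AP1M2 overlapped both ESRP2 and ESRP1, and PRSS8 did not overlap RAB25.

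Genes of the same pathways were taken from 8 lists and are described by how many passed the test in each direction, beside the background shares given above. Like the 9 genes, the lists were put together with earlier results known, so their counts are descriptions. In MCF10AT1 a log2 difference below -6 was seen for the transcription factors OVOL2, ELF3 and GRHL2 and the EpCAM partners CLDN7 and CLDN4. The serine proteases PRSS22 and TMPRSS13 had one as well. The recycling list had 3 calls of 20 and the splicing list 2 of 16. Without control c the calls in MCF10AT1 numbered 1 for splicing factors, 2 for the exon list, 2 for recycling, 3 for adaptors, 4 for proteases, 3 for protease targets, 5 for EpCAM partners and 8 for transcription factors.

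The 16 other splicing factors tested that are linked to EMT had 0 higher and 2 lower in MCF10AT1, with a median log2 difference of -0.34. These were PTBP3 (-2.08 ± 0.45, SE, adjusted p = 0.0193), a repressor of exon inclusion, and RBM47 (-1.82 ± 0.44, adjusted p = 0.0311), which stabilizes and edits mRNA. The count was 0 or 1 when any 1 library other than control b was left out, and 3 with the replicate block, where MBNL3 passed (-1.56, adjusted p = 0.0356, against 0.167 without it). Of 12 genes whose exons ESRP proteins regulate, 0 were higher and 3 were lower in MCF10AT1. They were GRHL1 (-3.47 ± 0.79, adjusted p = 0.0239), the lipolysis-stimulated receptor LSR of tricellular junctions (-1.96 ± 0.26, adjusted p = 0.00181) and CTNND1, which encodes p120-catenin (-1.82 ± 0.27, adjusted p = 0.00340). CD44 (log2 difference 0.80 ± 0.32, adjusted p = 0.144) and FGFR2 (-1.53 ± 0.66, adjusted p = 0.178) did not pass. The table holds 1 value per gene, so exon use was not measured.

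Of 20 RAB11 family and recycling genes, 0 were higher and 3 lower in MCF10AT1. MYO5B, the motor that carries RAB11 and RAB25 vesicles, had a log2 difference of -3.99 ± 0.32 (SE, adjusted p = 0.000192), the adaptor RAB11FIP4 of -2.59 ± 0.53 (adjusted p = 0.0152) and MYO5C of -1.71 ± 0.40 (adjusted p = 0.0272). With the replicate letter as a block, 1 was higher and 6 were lower, and without control a the count was 1. Of 12 other subunits of the AP-1 and AP-2 adaptors, the small subunit AP1S3 fell (-2.42 ± 0.47, adjusted p = 0.0119) and the AP-2 subunit AP2A1 rose (0.93 ± 0.23, adjusted p = 0.0331). AP1M1, the ubiquitous counterpart of AP1M2, had 965, 875 and 706 normalized counts in MCF10AT1 controls and 1984, 1511 and 1140.2 in the libraries labelled knockdown. These did not overlap, and the log2 difference of 0.84 ± 0.30 passed only with the replicate block (adjusted p = 0.0295, against 0.109 without it). With that block 3 subunits were higher and 1 lower, and the count of 2 dropped to 0 or 1 without control a or any 1 library labelled knockdown.

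Of 6 tested among 21 other serine proteases, most of them membrane-anchored, 1 was higher and 3 lower in MCF10AT1. The secreted PRSS22 (-7.38 ± 0.65, SE, adjusted p = 0.000267) and the membrane protease TMPRSS13 (-6.79 ± 0.68, adjusted p = 0.000469) fell to between 0 and 2.64 normalized counts. PRSS21, testisin, which like prostasin has a lipid anchor, rose from 96.6, 43.8 and 47.2 to 3181, 3006 and 2621 normalized counts (5.62 ± 0.37, adjusted p = 6.68e-05). It went the other way in MCF10A, where control libraries had 121, 62.7 and 53.1 and the labelled knockdown 0, 1.64 and 1.61 (-5.30 ± 0.58, adjusted p = 0.00803).

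The list of targets and other inhibitors of prostasin and matriptase also held genes less directly linked to them. Among these were the receptors MST1R and MET and the inhibitor SPINK5. Of the 11 genes of that list tested, 1 rose and 4 fell in MCF10AT1. The increase was in SERPINE2, which encodes protease nexin-1, an inhibitor of prostasin and of urokinase, from 765, 842 and 1451 to 87228, 91485 and 130604 normalized counts (6.69 ± 0.33, SE, adjusted p = 2.51e-05). The epithelial sodium channel subunit SCNN1B (-3.76 ± 0.36, adjusted p = 0.000370) and the inhibitor SPINK5 (-3.57 ± 0.52, adjusted p = 0.00300) fell, and F2RL1, the receptor PAR2 that matriptase can activate, had a log2 difference of -0.02 (adjusted p = 0.987). The count of 5 was 3 without control a, control c or knockdown library a.

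Of 7 tested relatives and partners of EpCAM, 0 rose and 5 fell in MCF10AT1. The tight junction protein CLDN7, which binds EpCAM, went from 5002, 7369.7 and 4331 to 9.95, 11.6 and 14.9 normalized counts (-8.71 ± 0.34, SE, adjusted p = 1.87e-05). CLDN4 (-8.08 ± 0.46, adjusted p = 3.92e-05) and CLDN1 (-4.07 ± 0.83, adjusted p = 0.0146) fell as well.

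Of 16 tested transcription factors of epithelial gene programmes and their opponents, 1 rose and 6 fell in MCF10AT1, and with the replicate block 4 rose and 8 fell. OVOL2 (-7.92 ± 0.65, SE, adjusted p = 0.000202), ELF3 (-6.999 ± 0.51, adjusted p = 0.000112) and GRHL2 (-6.90 ± 1.06, adjusted p = 0.00396) had the largest falls. GRHL2, a factor known to bind the promoters and enhancers of many epithelial genes, had 587, 383 and 963 normalized counts in MCF10AT1 controls and 0.92, 32.6 and 0.98 in the libraries labelled knockdown. Library b was the highest for GRHL2, as it was for ESRP1, ESRP2, ST14, SPINT1 and SPINT2. Library c was the highest for RAB25, AP1M2, PRSS8 and EPCAM. A link between GRHL2 and these levels was not tested. In MCF10CA1h GRHL2 was between 0 and 2.37 in all 6 libraries, where RAB25 was also near 0 while ESRP1, ST14 and EPCAM were not.

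In MCF10CA1h, the labelled knockdown had 0 higher and 3 lower of 16 splicing factors, 2 higher and 1 lower of 12 genes with ESRP-regulated exons, 3 higher and 1 lower of 20 recycling genes, 4 higher and 0 lower of 11 protease targets and inhibitors, and 1 higher and 1 lower of 7 relatives and partners of EpCAM. No adaptor subunit of 12, protease of 4 or transcription factor of 14 passed in limma, with 2, 0 and 3 at an unadjusted p under 0.05. The changes were under 1 on the log2 scale apart from CLDN4 (-1.16 ± 0.29, SE, adjusted p = 0.0261). RBM47 (-0.87), HNRNPF (-0.49) and SRSF1 (-0.45) led the splicing factors, and EHD1 (0.75), RAB11FIP5 (0.49) and RAB14 (-0.47) the recycling genes. The receptor MST1R (0.72), the urokinase gene PLAU (0.57) and the receptor MET (0.55) led the list of protease targets and inhibitors. MAGI1 (-0.71), CTNND1 (0.49) and EXOC7 (0.35) were the calls among genes with ESRP-regulated exons, and FHL2 (0.33) was the other among the partners of EpCAM. In a joint fit of all 18 libraries 0 genes of these 5 lists passed, with no intensity trend 1 gene passed in the exon list, 1 among the protease targets and 0 in the other 3 lists, and the counts moved when single libraries were left out. The splicing factors had 1 call without control b or c or knockdown library b or c and 5 without knockdown library a. The exon list had 0 without control a or knockdown library b and 1 without control c or knockdown library c. The recycling genes had 2 without control a or knockdown library b or c, the protease targets 2 without control a or knockdown library b, and the EpCAM partners 0 or 1 without any 1 of the 6 libraries. FGFR2 (-0.82 ± 0.30, adjusted p = 0.104), CD44 (0.23 ± 0.08, adjusted p = 0.0817), AP1M1 (0.17 ± 0.11, adjusted p = 0.354) and F2RL1 (0.06 ± 0.15, adjusted p = 0.840) did not pass.

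In MCF10A only PRSS21, CLDN1 and CLDN7 of the 8 lists passed the test. CLDN1 rose (1.42 ± 0.30, SE, adjusted p = 0.0490) and CLDN7 fell (-0.96 ± 0.17, adjusted p = 0.0281), and the count of 2 in their list was 0 or 1 without control b or any 1 library labelled knockdown. It was also 1 with a pseudocount of 0.5, with a minimum mean of 50 or with equal sums, and 0 with no intensity trend or in the joint fit. With the replicate block it was 3, where CLDN4 passed (-1.22, adjusted p = 0.0183, against 0.154 without it). Of the 6 lists with 0 calls in limma, the splicing factors had 0 genes at an unadjusted p under 0.05, the exon list 1, recycling 5, the adaptors 3, the protease targets 3 and the transcription factors 3. With the replicate block these lists had 0, 0, 2, 1, 3 and 1 calls and the proteases 2. F2RL1 had a log2 difference of -0.73 ± 0.18 (adjusted p = 0.0802, or 0.0361 with the block).

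Between the control libraries of MCF10CA1h and MCF10A the recycling list had 1 higher and 6 lower of 20, the protease targets 1 higher and 6 lower of 11, the proteases 2 higher and 4 lower of 6, the adaptors 2 higher and 4 lower of 12, the splicing factors 4 higher and 2 lower of 16, the EpCAM partners 0 higher and 3 lower of 7, the transcription factors 0 higher and 4 lower of 16 and the exon list 0 higher and 2 lower of 12. CLDN7, with 28.2 to 61.6 normalized counts against 2201 to 2597, had a log2 difference of -5.95 ± 0.31 (SE, adjusted p = 7.06e-06) and GRHL2, with 0 to 2.13 against 282 to 473, one of -7.65 ± 0.50 (adjusted p = 2.82e-05), while EPCAM itself was higher. Leaving out 1 library gave 9 transcription factors without MCF10AT1 control b or c, 3 splicing factors without MCF10CA1h control c, 3 adaptors without MCF10A control c or any 1 MCF10CA1h control, and for the exon list 6 without MCF10AT1 control b, 5 without MCF10AT1 control c and 1 without MCF10A control b or c, MCF10AT1 control a or any 1 MCF10CA1h control.

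**Figure D3:**
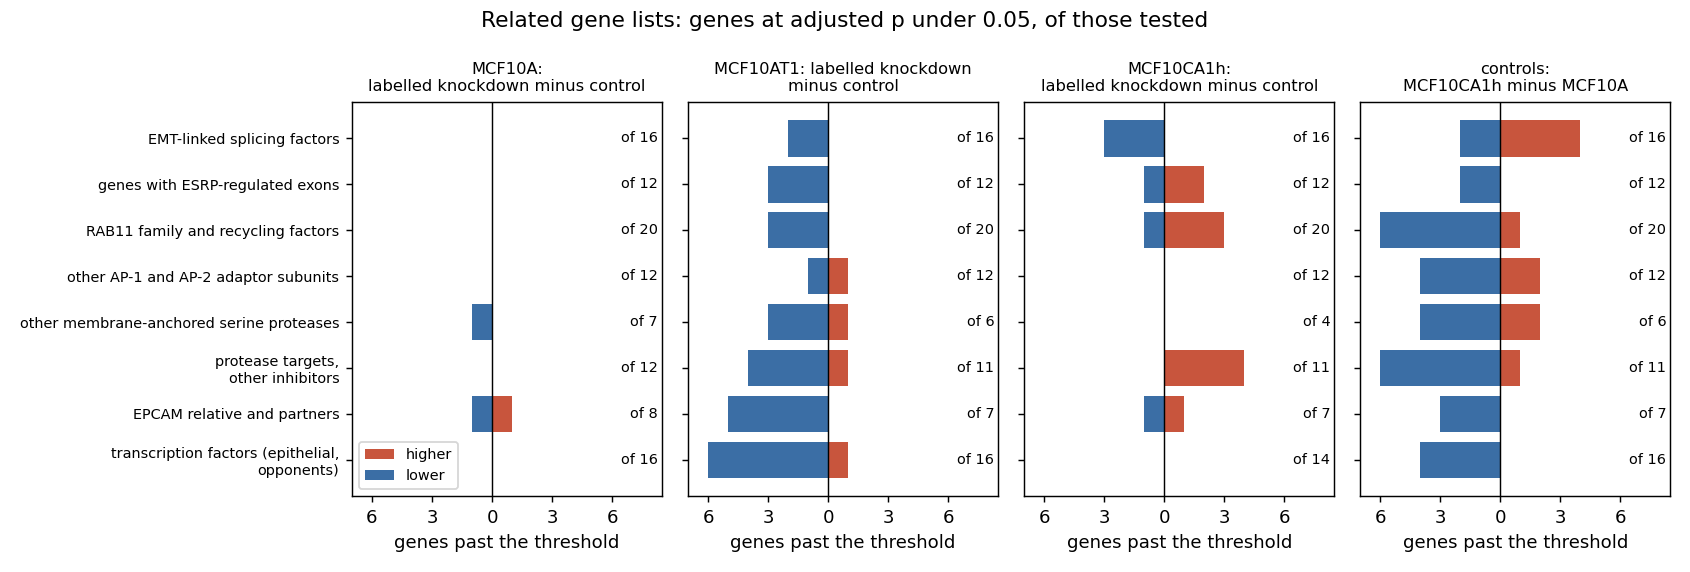
Bars show, for 8 lists of related genes, how many genes passed an adjusted p under 0.05 as higher (red, to the right) or lower (blue, to the left) in 4 comparisons, with the number tested at the right edge. In MCF10AT1 the transcription factors (6 lower of 16) and EpCAM relatives and partners (5 lower of 7) have the longest blue bars, and in MCF10A 3 genes in all pass.

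Genes next to the 9 on their chromosomes were looked at after the values were seen, to show whether whole neighbourhoods moved. For each gene the 2 nearest tested protein-coding genes on either side were taken, 36 in all. In MCF10AT1 their median log2 difference was 0.10, against 0.02 over all genes, and they ranged from -4.09 to 2.05. Of these 36, 3 were called higher and 3 lower. The lower ones were RHOV next to SPINT1 (-4.09, adjusted p = 0.00418), TTC7A on the side of EPCAM (-1.73, adjusted p = 0.00594) and SLC44A2 next to AP1M2 (-1.51, adjusted p = 0.0204). BCKDK near PRSS8 (1.49, adjusted p = 0.0283), APLP2 near ST14 (1.98, adjusted p = 0.0143) and YIF1B near SPINT2 (1.30, adjusted p = 0.0382) were higher. No neighbour of RAB25, ESRP1 or ESRP2 was called.

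**Figure D4:**
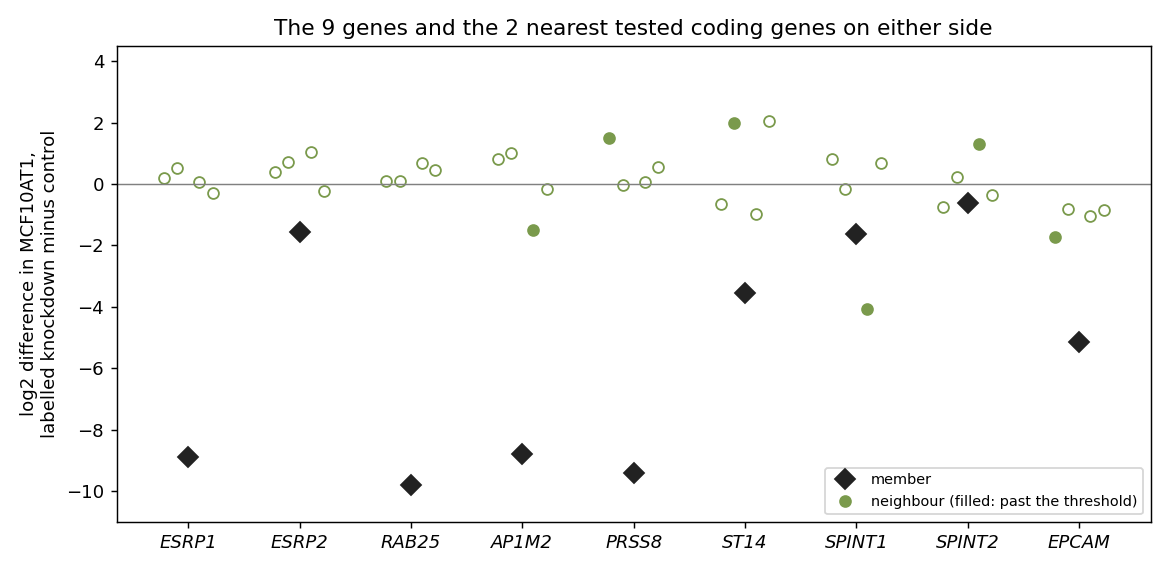
Black diamonds give the log2 difference between labelled knockdown and control in MCF10AT1 for the 9 genes, and green circles give it for the 2 nearest tested coding genes on either side, filled where adjusted p was under 0.05. Apart from RHOV at -4.09 beside SPINT1, the neighbours lie between -1.73 and 2.05.

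The genes whose pattern over the 6 groups was most like the mean pattern of the 9 were sought among 12451 other genes with a mean of at least 50, by the root mean square difference of centred group means of log2 values. This is a description over 6 group means that share the libraries of the 9 genes. The closest were TGM1 (0.21), a transglutaminase of the epidermal barrier, the adhesion protein NECTIN4 (0.24), the receptor ERBB3 (0.27), ADAP1 (0.30), TTC22 (0.39), the peptide endothelin-1 gene EDN1 (0.41), ANO9 (0.41) and C1orf210 (0.43). All 8 were closer to the mean than any of the 9 genes was, since those lay between 1.12 for ST14 and 3.63 for RAB25. TGM1 had mean log2 values of 8.56 and 8.02 in MCF10A control and labelled knockdown, 9.13 and 3.45 in MCF10AT1 and 6.41 and 6.71 in MCF10CA1h. It was thus low in the MCF10AT1 libraries labelled knockdown and at a middle level in MCF10CA1h.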

How the data were processed

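RNA was extracted with TRIzol. The extraction text describes stranded, ribosomal RNA-depleted total RNA libraries, while the labels name polyA RNA. The authors used kallisto 0.46.1 for pseudo-alignment, tximport for gene totals and DESeq2 1.26.0 for normalization (R 4.1.1; hg38), with versions from the submitters' processing notes. The deposited normalized counts are a signal scaled between libraries, neither whole reads nor per length, so the depth behind a value is unknown.

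Of 60579 rows, 35933 genes had values, 39 of them without a symbol, and for 294 genes another gene with higher values held the symbol. Values were tested as log2(normalized count + 1), keeping genes whose mean in the fitted libraries reached 10, in limma 3.58.1 (R 4.3.3, intensity trend), with Benjamini-Hochberg adjustment over all genes tested and a threshold of 0.05. Tests are two-sided. Each line was fitted alone, the 9 control libraries together, and the difference between lines as an interaction over 18 libraries. The procedure was tested on simulated data. The 9 genes, the lists and the naming rule (up to 3 called genes with the largest change per list and line, plus AP1M1, FGFR2, CD44, F2RL1 and a gene that is not reported here) were chosen with earlier results of these data known.

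Libraries with the same letter deviated together from their group means in MCF10A (r = 0.2213, 0.2002 and 0.116 for a, b and c over 15897 genes) and in MCF10AT1 (0.11, 0.2888 and 0.4774). Same-letter libraries of MCF10CA1h did not (-0.01124, 0.01732 and 0.04597). In MCF10AT1, however, knockdown library a followed control b (0.251) more than control a. Between the controls of MCF10A and MCF10CA1h the values had mixed signs (0.1083, 0.1608 and -0.1442). The letters come from the sample titles. The replicate block is therefore given beside the counts it changed in the 8 lists of related genes in MCF10A and MCF10AT1. It is also given beside PRSS8, AP1M1, F2RL1, EHD1, GRHL2 and CTNND1. Alternatives were pseudocounts of 0.5 and 5, no filter, a mean of at least 50, no trend, a joint fit, equal sums, median-of-ratios factors (between 1.013 and 1.018 as recomputed), the block, and each library left out. Gene positions and lengths came from GENCODE 44 and promoters from RefSeq.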

Additional observations from a re-analysis of the deposited data

Results flagged for a closer look

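Effects of opposite direction, or effects that differed by a test, were sought between lines for the genes named above. PRSS8 differed between MCF10CA1h and MCF10A by 2.7266 on the log2 scale, in a test of the difference itself (adjusted p = 0.00108). It also lay on opposite sides in MCF10CA1h and MCF10AT1, 11.4814 apart. So did ESRP2, 1.7502 apart, though its difference of 0.17 in MCF10CA1h did not pass the test in limma (adjusted p = 0.333). These 2 differences were not tested. Among the other genes, 3 passed the test of the difference between MCF10CA1h and MCF10A. They were EHD1 (1.4346), a protein of endosome recycling, RAB11FIP5 (0.9767), an adaptor of RAB11, and the protease PRSS21 (5.2355).

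Other genes had effects of opposite sign in 2 lines, with groups that did not overlap in either, and those differences were not tested. The share of all genes that met this rule was not counted. The log2 effect in MCF10AT1 minus that in MCF10A was 1.3118 for AP1M1, -2.7233 for RBM47, 1.5165 for EHD1, 10.9165 for PRSS21, -5.4985 for CLDN1 and -7.8601 for GRHL2. The effect in MCF10CA1h minus that in MCF10AT1 was 2.3065 for CTNND1, 4.2702 for MYO5B, 0.9604 for RAB11FIP5 and 2.4507 for MST1R. In limma without the replicate block the effects passed in both lines only for PRSS21, CLDN1, CTNND1 and MST1R. AP1M1 and EHD1 passed in neither line (adjusted p between 0.0846 and 0.134). RBM47 and GRHL2 did not pass in MCF10A (adjusted p = 0.276 and 0.0772). With the block EHD1 passed in MCF10A (adjusted p = 0.0342) and in MCF10AT1 (0.0363), and GRHL2 passed in MCF10A (0.0230). AP1M1 passed with it in MCF10AT1 (0.0295) but not in MCF10A (0.105). The CTNND1 call in MCF10CA1h was lost with it (adjusted p = 0.0575). MYO5B did not pass in MCF10CA1h (adjusted p = 0.209), nor RAB11FIP5 in MCF10AT1 (adjusted p = 0.249).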

How the results depend on the processing

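Of the 4 counts of called genes among the 9, 1 moved by more than 1.5 times. In MCF10A the count of genes past the threshold was 0, and it was 1 (PRSS8) with the replicate block and 1 without MCF10A control a, so that leaving out single libraries gave 0 to 1. The count stayed at 1 in MCF10CA1h and at 1 for the difference between MCF10CA1h and MCF10A under every alternative run, with a PRSS8 log2 difference between 1.91 and 2.20 in MCF10CA1h. For the controls of MCF10CA1h against MCF10A it was 7, between 6 and 7 under other settings and between 5 and 8 with 1 library left out. With the replicate block the count there was 6, since ESRP2 had an adjusted p of 0.0546, although the letters did not consistently pair these libraries. In MCF10CA1h same-letter libraries did not deviate together. There the block gave 3 transcription factors in place of 0, 1 gene of the exon list in place of 3 and 1 partner of EpCAM in place of 2. The block changed no other call of the 9 genes. No direction of a called gene reversed. In MCF10AT1 the median log2 difference was -5.16 and lay between -5.32 and -4.96. Scaling to equal sums moved the median of all genes there from 0.02 to -0.15, between MCF10AT1 and MCF10A controls from -0.01 to -0.15, between MCF10CA1h and MCF10AT1 controls from 0.05 to 0.16 and for the difference between MCF10CA1h and MCF10A effects from -0.03 to -0.17. It also moved the median of the 9 genes from -0.09 to -0.0041 in MCF10A, from -0.03 to -0.09 in MCF10CA1h, from 0.33 to 0.20 between MCF10AT1 and MCF10A controls and, with a change of sign, from 0.03 to -0.11 for the difference between MCF10CA1h and MCF10A effects. The control medians without a test were 0.33 for MCF10AT1 against MCF10A (0.20 to 0.46) and -0.76 for MCF10CA1h against MCF10AT1 (-0.85 to -0.65). The count of 6 serine proteases between the MCF10CA1h and MCF10A controls was 10 with no filter and 3 at a mean of at least 50. These settings change the genes tested. The 4 transcription factors were 7 in the joint fit. The cause of the other shifts was not tested. RAB25, AP1M2, PRSS8 and ESRP1 in the MCF10AT1 libraries labelled knockdown, and RAB25 in MCF10CA1h, are at 0 to 25.4 normalized counts, where the size of a fold change cannot be fixed.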
